A study of Mus musculus with 7 samples.

Results

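miR-33 is the microRNA encoded inside Srebf2, and its hairpin gives the mature strands miR-33-5p and miR-33-3p, listed in the counts as mmu-miR-33-5p and mmu-miR-33-3p. These 2 names were taken from the 1966 mature miRNAs counted in small RNA libraries of mouse hepatocytes, and both passed the filter on low counts that left 450 miRNAs for testing. The libraries compare ALAS12-KO (n = 4) with WT (n = 3). ALAS12-KO carries mutations of ALAS1 and ALAS2, the synthases of 5-aminolevulinate that open heme synthesis. All 7 libraries, WT included, carry the treatment label TMX, which the labels do not spell out. The sources used here do not give the alleles, the cells that lost them, or the strain and age of the mice. Livers were perfused with collagenase and the cells pelleted at low speed, which enriches hepatocytes without removing every other cell. In such bulk samples, fewer cells of a type and less RNA per cell cannot be told apart. Since no label ties a replicate to its own animal, every p-value below reflects only how far these samples scatter, and that scatter may be technical.

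Srebf2 encodes SREBP2, the transcription factor that switches on cholesterol synthesis and LDL uptake when sterols run low. miR-33 is transcribed with it, and miR-33-5p, the guide strand, is known for repressing Abca1, the transporter that loads cellular cholesterol onto apolipoprotein A-I, as well as genes of fatty acid oxidation and bile acid transport. In liver, host gene and miRNA together raise cellular cholesterol, and blocking miR-33 raises circulating HDL. Mice have a single miR-33 gene, while humans carry a further copy, miR-33b, in SREBF1. Srebf2, Abca1 and Alas transcripts are not measured by counts of mature miRNAs, so neither the genotype nor any target was checked here.

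The mature strands are shown first because everything below counts reads given to these sequences. Capitals mark the seed, bases 2 to 8, and the sequences are those of RefSeq on GRCm38.p6, the build that mm10 names.
miR-33-5p: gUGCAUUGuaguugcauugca
miR-33-3p: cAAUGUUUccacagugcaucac
The hairpin, with both mature strands in capitals, has 69 bases, 19 of them between the strands.
Mir33: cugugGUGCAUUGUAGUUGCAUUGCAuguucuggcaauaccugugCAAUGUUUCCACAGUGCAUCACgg
Mir33 lies on the plus strand at chr15:82198122-82198190, inside intron 16 of the 19-exon principal transcript of Srebf2 and on the same strand as its host, 335 bases after the exon before it and 1444 bases ahead of the next. miR-33-5p occupies chr15:82198127-82198147 and miR-33-3p chr15:82198167-82198188. In the minimum free energy fold of the hairpin, 16 of the 21 bases of miR-33-5p were paired with miR-33-3p. No other of the 1679 mature miRNA names in the RefSeq table had the seed of either strand.

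The seed of miR-33-5p pairs with CAATGCA in a transcript. The best known example is the start of the Abca1 3' UTR, shown because 3 matches crowd into 30 bases on the minus strand at chr4:53033783-53033812 (GRCm38, GENCODE M21 transcript), with the matches in capitals.
Abca1: tattCAATGCAATGCActtCAATGCAacga
The matches began at bases 135, 140 and 150 of the UTR, and the first and the second overlap by 2 bases. Among 10 genes named as miR-33 targets in human or mouse studies (Abca1, Npc1, Cpt1a, Crot, Hadhb, Prkaa1, Sirt6, Irs2, Abcb11 and Atp8b1), 8 held at least 1 match anywhere in the 3' UTR, read on the transcript's own strand. The share of all genes with a match anywhere in the 3' UTR was not counted, so 8 of 10 has no background beside it. UTRs differ in length, so a fixed window was used for the background. Of 9416 genes with a 3' UTR of at least 1000 bases, 5.1% had a match in its first 1000 bases. Of the 6 listed genes with such a UTR 1 did, Abca1. The length cut left out Crot, Hadhb and Sirt6, whose shorter UTRs held 1 match each, and Abcb11, whose UTR held 0. A match of letters is a description and not a site shown to be used.

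The libraries held 7719180 to 21962191 miRNA reads, so 1 CPM, a count scaled to the miRNA reads of its library, stood for 7.72 to 22.0 reads. Hepatocyte markers, led by miR-122-5p, took 60.6% to 69.3% of miRNA reads in ALAS12-KO and 63.4% to 66.2% in WT, with 6 of 6 marker miRNAs tested. Markers of other cells were present as well. Endothelial markers took 1.10% to 3.65% in ALAS12-KO and 3.56% to 5.25% in WT, leukocyte markers 0.293% to 0.977% in ALAS12-KO and 0.801% to 1.08% in WT, and mesenchymal markers 0.156% to 0.573% in ALAS12-KO and 0.416% to 0.697% in WT. Cholangiocyte markers took 0.00544% to 0.0105% in ALAS12-KO and 0.0139% to 0.0243% in WT. Red cell markers took 0.000911% to 0.00203% in ALAS12-KO and 0.00205% to 0.00272% in WT. None of the 28 markers in these lists was at 0. With edgeR 0 of them passed the adjusted threshold, as did 0 of all 450 tested miRNAs. With DESeq2, which called 22 of the 450 (4.89%), at least miR-144-3p of the red cell list passed (DESeq2 adjusted p = 0.0251). ALAS12-KO replicate 1 was the lowest library in all 5 of the non-hepatocyte lists and the highest for hepatocyte markers, so the differences of the miR-33 strands below are given with and without it.

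miR-33-5p stood at a similar level in all libraries except ALAS12-KO replicates 1 and 2, which were the 2 highest. Its reads in ALAS12-KO replicates 1 to 4 numbered 952, 610, 947 and 849, which is 72.3, 60.4, 55.4 and 51.8 CPM. In WT replicates 1 to 3 they numbered 848, 1145 and 410, which is 52.9, 52.1 and 53.1 CPM. The groups overlapped, because ALAS12-KO replicate 4 was below all 3 WT libraries. For comparison, 20.7% of the 450 tested miRNAs had groups that did not overlap on this scale. The mean was 60.0 ± 8.92 CPM (SD, n = 4) in ALAS12-KO and 52.7 ± 0.518 CPM (SD, n = 3) in WT.

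The spread between libraries was unequal. The coefficient of variation of miR-33-5p CPM was 14.9% in ALAS12-KO and 0.983% in WT, where counting error alone averages 3.49% in ALAS12-KO and 3.78% in WT. Set against library totals, the chi-square per degree of freedom of the miR-33-5p counts was 19.2 in ALAS12-KO and 0.0799 in WT, beside medians over the 450 tested miRNAs of 8.22 in ALAS12-KO and 3.88 in WT. The 3 WT libraries were thus closer to each other than counting error, and only 12 of the 450 miRNAs had a lower value there. ALAS12-KO replicate 1, with a 95% Poisson interval of 67.8 to 77.0 CPM, stood above the upper bound of every other library, the highest of which was 65.4 CPM in ALAS12-KO replicate 2. These intervals cover counting error only.

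**Figure D1:**
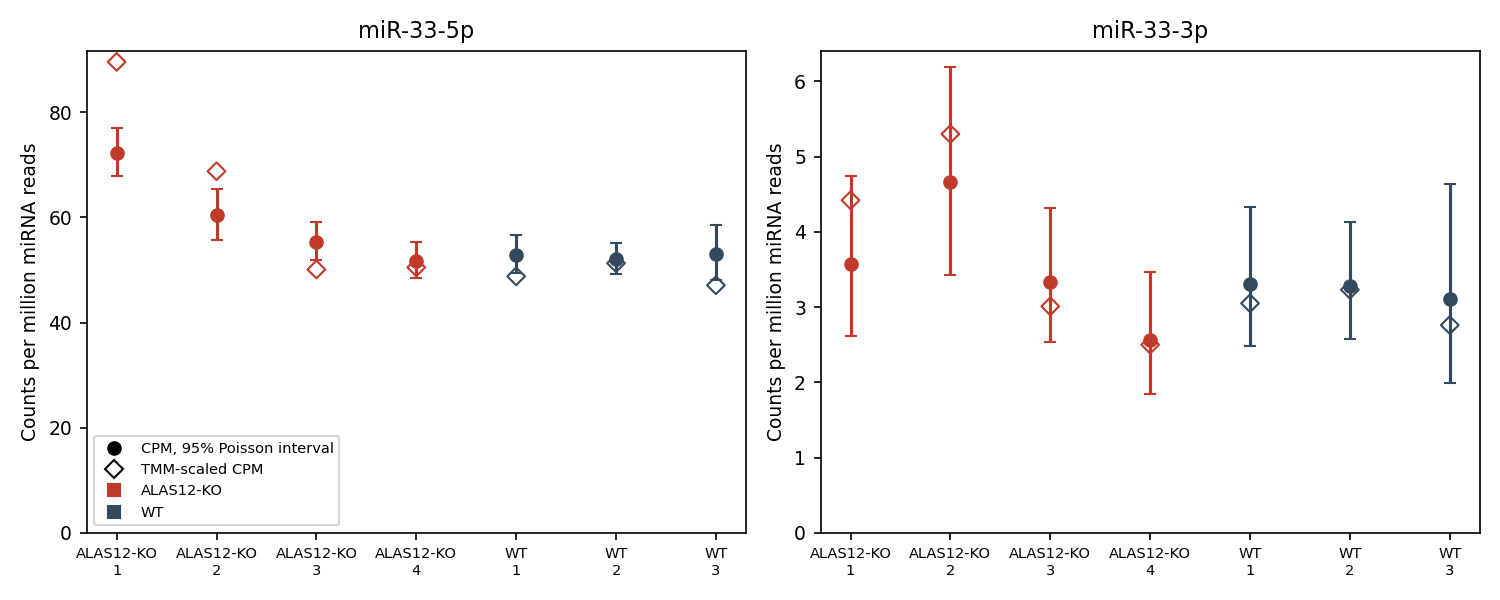
CPM (y axis, from 0) of miR-33-5p and miR-33-3p in each library (x axis; ALAS12-KO replicates 1 to 4, WT replicates 1 to 3). Filled circles are CPM with 95% Poisson intervals and open diamonds are TMM-scaled CPM; ALAS12-KO replicates 1 and 2 are highest for both strands on both scales, and the remaining libraries lie at 51.8 to 55.4 CPM for miR-33-5p.

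TMM scaling, which divides each library by a factor set by the bulk of its miRNAs, widened the contrast. TMM-scaled miR-33-5p was 89.6, 68.8, 50.1 and 50.5 CPM in ALAS12-KO replicates 1 to 4 and 48.8, 51.3 and 47.1 CPM in WT replicates 1 to 3. ALAS12-KO replicates 1 and 2 then stood apart, while replicates 3 and 4 were within the WT range. The factors were 0.8064 and 0.879 for ALAS12-KO replicates 1 and 2, and 1.0155 to 1.1272 for the other 5 libraries.

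miR-33-5p did not differ between the genotypes beyond the replicate spread. TMM-scaled, it averaged 64.7 ± 18.7 CPM (SD, n = 4) in ALAS12-KO and 49.1 ± 2.13 CPM (SD, n = 3) in WT. The log2 fold change was 0.40 ± 0.24 (SE), with an edgeR quasi-likelihood p of 0.127 and a Benjamini-Hochberg adjusted p of 0.354 over 450 miRNAs. Its 95% interval ran from −0.14 to 0.93, a fold of 0.909 to 1.91, so that a difference within that range is not shown to be absent. The edgeR test called 0 of 450 miRNAs (percent called 0), with 84 at an unadjusted p under 0.05 (18.7%), and 22 called by DESeq2 (4.89%), 0 by limma-voom. miR-33-5p was not among any of these, and it had the 161st lowest p and the 91st highest log2 fold change.

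The size of that value rested on 1 library and on the scaling. Without ALAS12-KO replicate 1 the log2 fold change was 0.17 ± 0.18 (edgeR adjusted p = 0.634). With library totals in place of TMM it was 0.19 ± 0.15 (edgeR adjusted p = 0.529). Over the 450 tested miRNAs the median was 0.06 with TMM and −0.12 with library totals, and miR-33-5p was above it by 0.34 and 0.30. The median was 0.03 without ALAS12-KO replicate 1, and miR-33-5p was above it by 0.15. That scaling also moved the split of all miRNAs at an unadjusted p under 0.05, of which 54.8% were higher in ALAS12-KO with TMM and 27.3% with library totals. In ALAS12-KO replicate 1, where miR-33-5p was highest, endothelial markers took 1.10% of reads and leukocyte markers 0.293%, while in ALAS12-KO replicates 2 to 4 endothelial markers took 2.55% to 3.65% and leukocyte markers 0.640% to 0.977%. The part of these cells in the miR-33-5p level was not tested.

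miR-33-3p, the passenger strand, was rare in every library. Its reads in ALAS12-KO replicates 1 to 4 numbered 47, 47, 57 and 42, which is 3.57, 4.66, 3.33 and 2.56 CPM. In WT replicates 1 to 3 they numbered 53, 72 and 24, which is 3.31, 3.28 and 3.11 CPM. ALAS12-KO held both the highest and the lowest library, so the groups overlapped. TMM-scaled, miR-33-3p averaged 3.81 ± 1.28 CPM (SD, n = 4) in ALAS12-KO and 3.01 ± 0.237 CPM (SD, n = 3) in WT. The log2 fold change was 0.31 ± 0.31 (SE), with a 95% interval of −0.39 to 1.01 and an edgeR adjusted p of 0.577. Without ALAS12-KO replicate 2, the library where it was highest, it was 0.09 ± 0.28 (edgeR adjusted p = 0.901), without ALAS12-KO replicate 1 it was 0.20 ± 0.32 (adjusted p = 0.81), and with library totals 0.12 ± 0.25 (adjusted p = 0.834). With 24 to 72 reads per library, counting error alone averaged 14.5% in ALAS12-KO and 15.3% in WT.

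**Figure D2:**
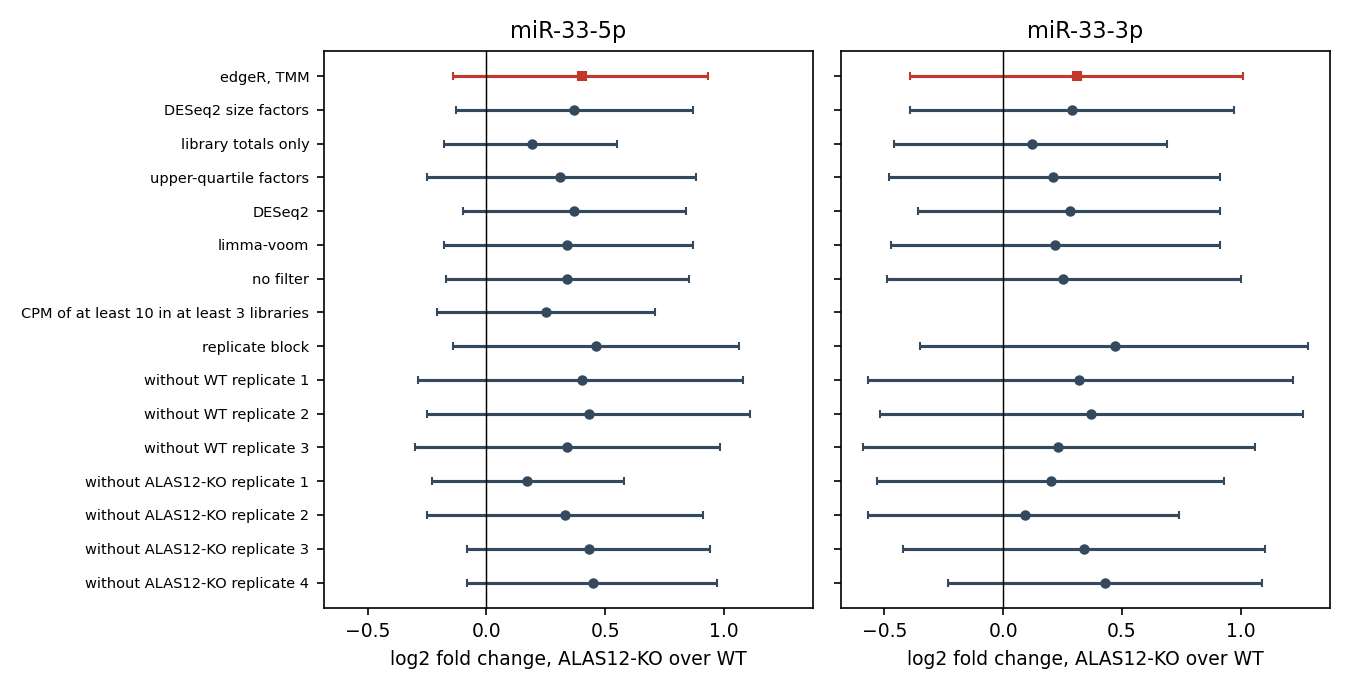
Log2 fold change, ALAS12-KO over WT (x axis), of miR-33-5p and miR-33-3p with 95% intervals, for edgeR with TMM (red square) and each alternative (dark circles, y axis). All intervals include 0, and miR-33-5p ranges from 0.17 without ALAS12-KO replicate 1 to 0.46 with the replicate block; miR-33-3p has no point for the stricter filter, which it did not pass.

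The balance of the strands does not depend on library scaling, and it did not differ between the genotypes beyond the spread. miR-33-3p made up 4.70%, 7.15%, 5.68% and 4.71% of the reads of both strands in ALAS12-KO replicates 1 to 4 and 5.88%, 5.92% and 5.53% in WT replicates 1 to 3. WT lay within the ALAS12-KO range. The 95% Wilson intervals of these shares, which cover counting error only, overlapped throughout, from 3.56% to 6.20% in ALAS12-KO replicate 1 to 5.42% to 9.38% in ALAS12-KO replicate 2. The mean share was 5.56% ± 1.15 (SD, n = 4) in ALAS12-KO and 5.78% ± 0.214 (SD, n = 3) in WT.

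On the log2 scale the ratio of miR-33-3p to miR-33-5p differed by −0.08 ± 0.19 (SE), with a 95% interval of −0.53 to 0.37 and a limma adjusted p of 0.903 over 130 hairpins with both strands tested. Without ALAS12-KO replicate 1 the difference was −0.0040, and without ALAS12-KO replicate 2 it was −0.22 (limma adjusted p = 0.41). limma called 0 of those hairpins (percent called 0), with 7 at an unadjusted p under 0.05 (5.38%). Over all libraries miR-33-5p outnumbered miR-33-3p 16.7-fold, where the median hairpin had 14.6-fold between its major and minor strand, and 66 of the 130 hairpins were more balanced. miR-33 was 1 of 74 of these hairpins in which the 5p strand was the major one.

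**Figure D3:**
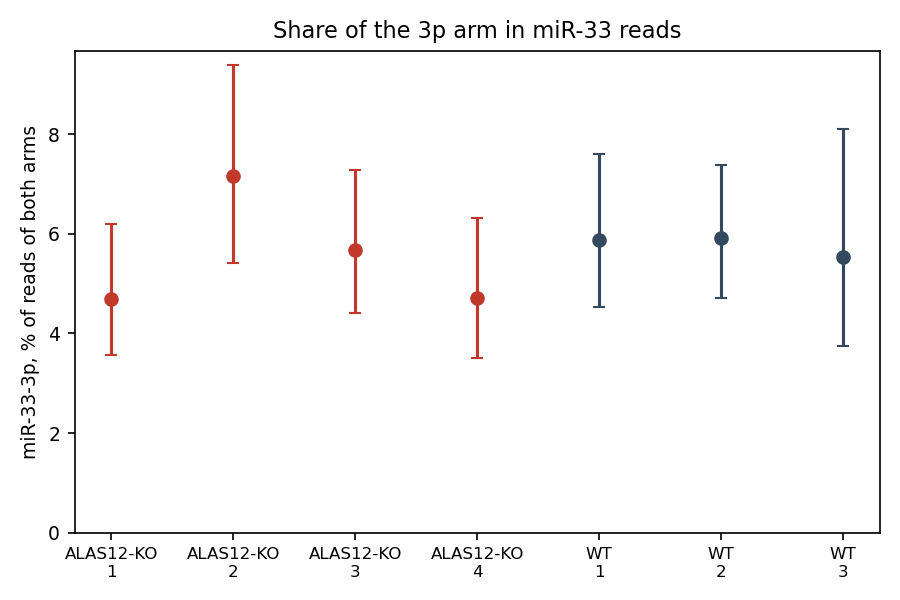
Share of miR-33-3p in the reads of both miR-33 strands (y axis, percent, from 0) in each library (x axis), with 95% Wilson intervals. The ALAS12-KO libraries run from 4.70% to 7.15% and the WT libraries from 5.53% to 5.92%.

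miR-33-5p was above the median in abundance. It ranked 127th of the 450 tested miRNAs by mean CPM, at 56.9 CPM, which is 5.95 times the median of 9.56 CPM, and miR-33-3p ranked 296th at 3.40 CPM. By library, miR-33-5p ranked between 109 and 128 in ALAS12-KO and between 128 and 134 in WT. Its neighbours by mean CPM were miR-100-5p (59.3 CPM) and miR-17-5p (57.5 CPM) above and miR-542-3p (56.7 CPM) and miR-29c-5p (54.2 CPM) below. The ranges of all 4 over the libraries overlapped that of miR-33-5p, so their order is not fixed beyond the spread. Reads of miRNAs also differ in how well they are ligated, so levels of different miRNAs are compared only as read counts.

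Ratios within a library gave values free of the scaling factors. miR-122-5p, the miRNA that defines hepatocytes and itself supports cholesterol synthesis in liver, outnumbered miR-33-5p 8506, 9853, 9646 and 10823-fold in ALAS12-KO replicates 1 to 4. In WT replicates 1 to 3 the excess was 10792, 11385 and 10729-fold. ALAS12-KO replicate 4 fell inside the WT range, and the other ALAS12-KO libraries had relatively more miR-33-5p. The log2 ratio of miR-33-5p to miR-122-5p was −13.24 ± 0.14 (SD, n = 4) in ALAS12-KO and −13.42 ± 0.05 (SD, n = 3) in WT. The difference was 0.18, with a two-sided exact permutation p of 0.114, where the smallest p that the 35 splits allow is 0.0286. Without ALAS12-KO replicate 1 it was 0.12 (exact permutation p = 0.3). That run has fewer splits and cannot give a p under 0.05, so its p is not comparable with the 0.114. Against the sum of the other 5 hepatocyte markers, an alternative chosen after seeing the data, the difference was 0.03 (two-sided exact permutation p = 0.8).

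Other intronic miRNAs were set beside miR-33-5p, each on the strand of its host and outside the exons of the host's principal transcript. miR-103-3p comes from introns of Pank2 and Pank3, which encode pantothenate kinases of coenzyme A synthesis. miR-378a-3p comes from an intron of Ppargc1b, a coactivator of mitochondrial and lipid genes. miR-26a-5p comes from introns of Ctdspl and Ctdsp2, which encode phosphatases, and miR-30e-5p from an intron of Nfyc, a subunit of a CCAAT-binding factor. Relative to these 4, the estimates for miR-33-5p lay on both sides of 0, and no difference exceeded the spread between replicates. The references had log2 fold changes of their own, beside 0.40 ± 0.24 for miR-33-5p. These were 0.0033 ± 0.12 for miR-103-3p, 0.86 ± 0.19 for miR-378a-3p, 0.31 ± 0.11 for miR-26a-5p and 0.55 ± 0.15 for miR-30e-5p. A negative difference below is therefore relative to a reference with a higher estimate, and not a fall of miR-33-5p.

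The log2 ratio of miR-33-5p to miR-103-3p was −5.09 ± 0.43 (SD, n = 4) in ALAS12-KO and −5.44 ± 0.07 (SD, n = 3) in WT, a difference of 0.35 with an exact permutation p of 0.314. To miR-378a-3p it was −4.09 ± 0.67 in ALAS12-KO and −3.60 ± 0.14 in WT, a difference of −0.49 with an exact permutation p of 0.343. The ALAS12-KO libraries were split here, and likewise for miR-103-3p and miR-26a-5p. miR-26a-5p outnumbered miR-33-5p 105.4 and 140.1-fold in ALAS12-KO replicates 1 and 2, 212.4 and 217.7-fold in replicates 3 and 4, and 167.0 to 168.2-fold in WT. For miR-103-3p it was 24.1 and 29.9-fold, 40.3 and 46.4-fold, and 41.2 to 44.9-fold, in the same order. miR-378a-3p outnumbered miR-33-5p 10.5 and 12.7-fold in ALAS12-KO replicates 1 and 2, 27.1 and 23.3-fold in ALAS12-KO replicates 3 and 4, and 11.3 to 13.6-fold in WT. To miR-26a-5p the ratio was −7.34 ± 0.50 in ALAS12-KO and −7.39 ± 0.01 in WT (exact permutation p = 1.00), a difference of 0.05 that became −0.15 without ALAS12-KO replicate 1 and −0.02 without ALAS12-KO replicate 2. To miR-30e-5p it was −7.13 ± 0.18 in ALAS12-KO and −6.95 ± 0.05 in WT, a difference of −0.18 (exact permutation p = 0.2). The lowest of the 4 exact permutation p-values was 0.457 once adjusted over the ratios by Benjamini-Hochberg. Without ALAS12-KO replicate 1 the difference was 0.19 against miR-103-3p, −0.72 against miR-378a-3p and −0.26 against miR-30e-5p.

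**Figure D4:**
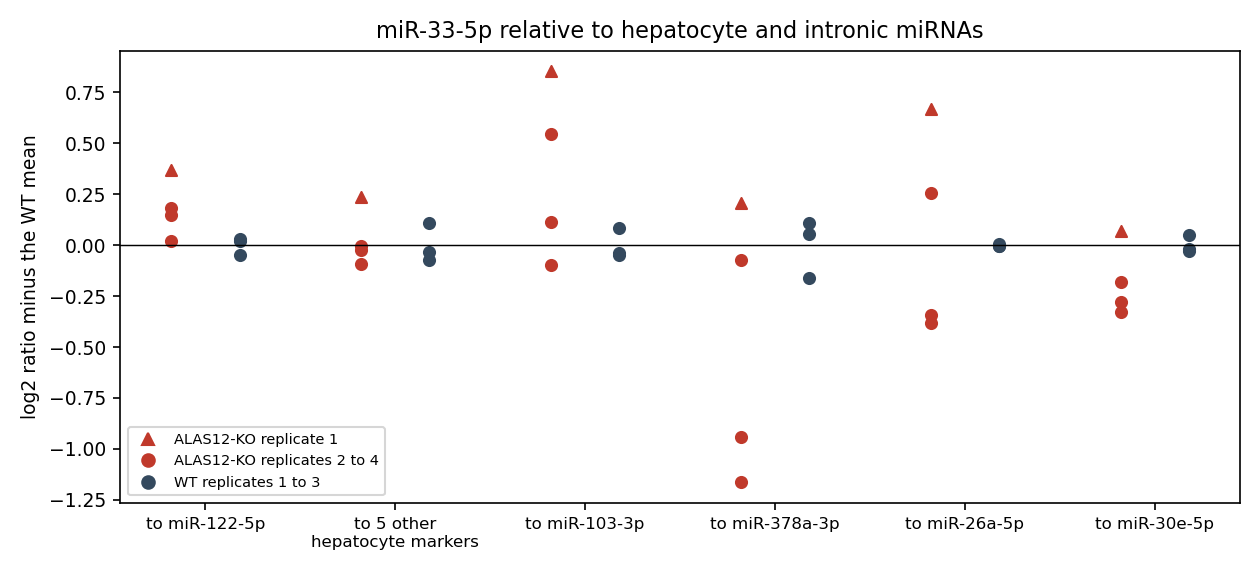
Log2 ratio of miR-33-5p to each miRNA or marker sum (x axis), minus the WT mean of that ratio (y axis), 1 point per library, ALAS12-KO to the left and WT to the right in each pair. ALAS12-KO replicate 1 (triangle) is the highest of the 7 libraries in all 6 ratios.

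The profile of miR-33-5p over the 7 libraries was most like those of miRNAs that include 3 hepatocyte markers. Among 221 miRNAs with a mean of at least 10 CPM, the highest Pearson correlations with it on log2 TMM-scaled CPM were 0.98 for miR-194-5p, 0.97 for miR-101b-3p, 0.96 for miR-192-5p, 0.96 for miR-28a-3p and 0.96 for let-7f-5p (n = 7 libraries). The lowest was −0.97 for miR-23a-3p. These profiles share their scaling factors and the high value in ALAS12-KO replicate 1. Without that library (n = 6) the 5 highest had 0.92 to 0.97 and miR-23a-3p −0.91, and on library totals let-7f-5p had −0.15 and the other 4 had 0.81 to 0.89. miR-192-5p, miR-194-5p and miR-101b-3p are in the hepatocyte marker list, whose other members were not among the 5 highest. The log2 fold changes of these 3 were 0.39 ± 0.18, 0.34 ± 0.17 and 0.35 ± 0.18, beside the 0.40 ± 0.24 of miR-33-5p. None of the 3 passed the adjusted threshold (edgeR adjusted p of 0.267, 0.31 and 0.298). They were picked for profiles like that of miR-33-5p over the same libraries, so similar fold changes follow from the choice.

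Other miRNAs known to act on cholesterol and lipids were listed in 3 groups from the literature on mouse and human cells, with the earlier results of these data known. Of the 33 listed, 31 were tested and 0 passed the adjusted threshold with edgeR. At an unadjusted p under 0.05, 6 were higher in ALAS12-KO and 2 lower, together 25.8% of those tested. Of all 450 tested miRNAs, 18.7% were under that p, 10.2% higher and 8.44% lower. Their median log2 fold change was 0.18, beside 0.06 over all 450, and −0.0046 with library totals, beside −0.12. Without ALAS12-KO replicate 1 it was 0.05, beside 0.03 over the 445 miRNAs then tested. In that fit 6 members were higher and 4 lower at an unadjusted p under 0.05 (32.3% of those tested). Of all 445, 45 were higher and 56 lower (22.7%).

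Among the 15 miRNAs reported to repress cholesterol efflux through ABCA1, as miR-33-5p does, 13 were tested and they lay on both sides of 0, 6 positive and 7 negative, with a median of −0.12. With library totals 4 were positive and 9 negative, with a median of −0.28, beside −0.12 over all 450 on that scale. The most abundant were miR-148a-3p, which also represses the LDL receptor, with a log2 fold change of 0.29 ± 0.16, miR-26a-5p with 0.31 ± 0.11 and miR-27b-3p with 0.09 ± 0.14. With library totals these 3 had 0.10, 0.15 and −0.11, so miR-27b-3p changed sign. miR-26a-5p was the 1 member higher at an unadjusted edgeR p under 0.05, with an adjusted p of 0.22. TMM-scaled, miR-144-3p averaged 3.70 ± 1.14 CPM in ALAS12-KO and 7.21 ± 1.03 CPM in WT, with −0.97 ± 0.29 (edgeR adjusted p = 0.195), and DESeq2 called it (adjusted p = 0.0251). miR-145a-5p, a miRNA of smooth muscle and other mesenchymal cells, had −0.72 ± 0.27 (edgeR adjusted p = 0.221). miR-144-3p is itself in the red cell list and miR-145a-5p in the mesenchymal list, and the shares of both lists are given above; the part of these cells in either value was not tested. miR-758-3p had 3 reads over all libraries and miR-302a-3p had 0, and neither was tested.

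All 8 miRNAs listed for SREBP feedback, the LDL receptor or the HDL receptor SR-BI were tested, 5 positive and 3 negative. The most abundant were miR-24-3p with a log2 fold change of −0.18 ± 0.12, miR-223-3p, which is also in the leukocyte list, with −0.41 ± 0.25 and miR-125a-5p with −0.49 ± 0.24. miR-96-5p, which like miR-33 has been tied to SREBP2 because the cluster it belongs to is a reported SREBP2 target, averaged 52.5 ± 14.0 TMM-scaled CPM in ALAS12-KO and 30.2 ± 6.35 TMM-scaled CPM in WT. It had a log2 fold change of 0.80 ± 0.26 (edgeR adjusted p = 0.22), and its cluster mates miR-182-5p and miR-183-5p had 0.69 ± 0.33 and 0.70 ± 0.34 (edgeR adjusted p = 0.283 for both). They come from 1 cluster and are not independent.

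All 10 miRNAs of the hepatic lipid list were tested and had positive estimates, from 0.0033 for miR-103-3p to 1.10 for miR-34a-5p, with 4 higher at an unadjusted p under 0.05 and 0 past the adjusted threshold. Of all 450 miRNAs, 252 had positive estimates and 10.2% were higher at an unadjusted p under 0.05. Leaving out ALAS12-KO replicate 1, 8 of the 10 were positive, beside 231 of 445 tested. With library totals 6 of the 10 were positive, beside 175 of 450, and miR-34a-5p passed, 1 of 2 among all miRNAs (0.444%). The most abundant were miR-122-5p (0.20 ± 0.16), miR-21a-5p (0.78 ± 0.14) and miR-29a-3p (0.13 ± 0.14), of which miR-122-5p and miR-29a-3p changed sign with library totals. miR-34a-5p, which targets Sirt1 and Hnf4a, had 1.10 ± 0.19, miR-378a-3p 0.86 ± 0.19 and miR-30c-5p, known for repressing the lipoprotein assembly factor Mttp, 0.50 ± 0.17. DESeq2 called 4 of the 31 tested members of the 3 groups, namely miR-34a-5p, miR-21a-5p, miR-378a-3p and miR-144-3p, beside 22 of all 450 (4.89%).

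**Figure D5:**
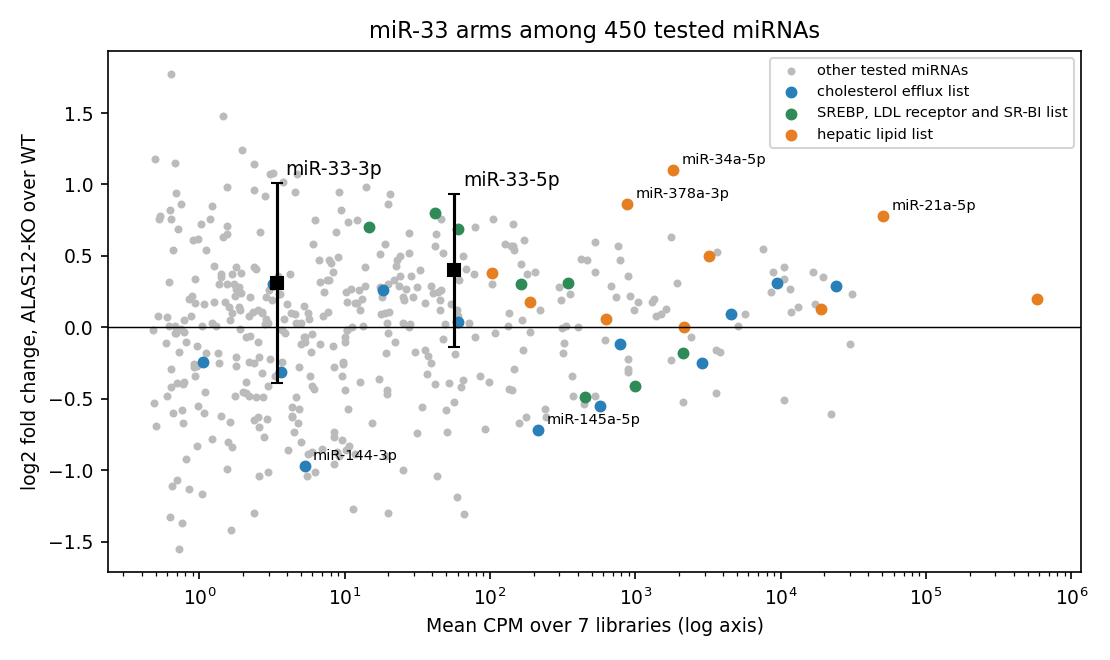
Log2 fold change, ALAS12-KO over WT (y axis), against mean CPM over 7 libraries (x axis, log scale) for the 450 tested miRNAs. Black squares are miR-33-5p (0.40) and miR-33-3p (0.31) with 95% intervals, coloured points are the 3 lipid lists and grey points are the other tested miRNAs; both strands lie above 0, with intervals that include it.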

How the data were processed

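The deposited tables, 1 for each of the 7 libraries, give raw counts of reads by mature miRNA, whole numbers with no normalisation to judge by their values. The submitters' processing notes name cutadapt, limma, mm10 and hg38, with no role, and the sources used here do not name the aligner, counter or miRNA annotation. The 5 summary entries, which held 58.9% to 78.2% of all counted reads, stayed out of library sizes and tests. Per the labels' protocols, control RNAs were added to the RNA; they were not analysed here, so levels are relative to all miRNAs. No pair of libraries within a group agreed to within counting error (chi-square 97.4 to 1104 per degree of freedom). Each was treated as a sample, though such scatter does not show that they come from separate animals.

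Counts were compared as ALAS12-KO over WT with edgeR 4.0.16 in R 4.3.3 (quasi-likelihood, robust, TMM, filterByExpr with a minimum count of 10) over 450 miRNAs, with Benjamini-Hochberg adjustment at 0.05. Strand ratios, with 0.5 added to each count, were tested with limma 3.58.1. Single ratios and shares were compared by two-sided exact permutation over 35 splits, or fewer with a library left out. Alternatives used DESeq2 1.42.0, limma-voom, other scalings and filters, a replicate block and leaving out libraries. The tests were checked on simulated data. Hairpins were folded with RNAfold 2.7.2. Named were the 2 strands, the 4 nearest in abundance, the 5 most alike and the 1 least alike in profile, the intronic miRNAs, and list members at an unadjusted p under 0.05 or among the 3 most abundant. Named outside this rule, after their values were seen, were miR-182-5p, miR-183-5p, miR-758-3p and miR-302a-3p. The members and lists were chosen with earlier results of these data known.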

Additional observations from a re-analysis of the deposited data

How the results depend on the processing

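Neither the log2 fold change of either miR-33 strand nor the strand ratio passed its threshold under any alternative run. The share of miR-33-5p and its ratios to other miRNAs did not pass in the alternatives that kept all libraries. With a library left out, these were compared by exact permutation with fewer splits, which cannot give a p under 0.05. Those runs show only how far the values moved. Over 15 alternatives the log2 fold change of miR-33-5p ran from 0.17 to 0.46 (edgeR, DESeq2 or limma-voom adjusted p from 0.271 to 0.668), and over 14 that of miR-33-3p from 0.09 to 0.47 (0.419 to 0.901). Leaving out each library gave 0.17 to 0.45 for miR-33-5p, 0.09 to 0.43 for miR-33-3p and −0.22 to −0.0040 for the strand ratio. The share of miR-33-5p in miRNA reads was higher in ALAS12-KO by 7.26e-04 percentage points (exact permutation p = 0.257). With each library left out it was higher by 3.17e-04 to 9.98e-04. As a share of miRNA reads without miR-122-5p it was higher by 1.85e-03. As a share of miRNA reads plus the no-feature summary entry it was higher by 3.30e-04. The ratio to miR-26a-5p changed sign without ALAS12-KO replicate 1 (−0.15) and replicate 2 (−0.02), and ran from −0.15 to 0.20 over all libraries left out. The count of miRNAs past the threshold was 0 with TMM, 2 with library totals, 22 with DESeq2, 13 without a filter and 0 to 1 with a library left out; in the lipid lists it was 1 with library totals and 4 with DESeq2, and 0 without ALAS12-KO replicate 1, an alternative chosen after seeing the data. The cause of these differences was not tested.

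Replicate numbers 1 to 3 occur in both groups and were not taken to pair the samples. Deviations from the group means of same-numbered samples had correlations of −0.02, −0.42 and −0.02, and 0 of 6 samples correlated best with their own number. These values show no sign of pairing, but so few libraries cannot exclude it. With the replicate block miR-33-5p had 0.46, miR-33-3p 0.47 and the strand ratio −0.0055, and 0 miRNAs passed. Depth limits the precision of miR-33-3p, at 24 to 72 reads per library.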
